A study of Mus musculus with 12 samples.

Results

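Potassium channel genes were taken from the messenger RNA profile of the hypothalamus of 12 male mice. Members were all rows of the expression table whose symbol is Kcn, a subfamily code of 1 or 2 letters and a number, and they came to 92 of 32494 listed genes in 20 subfamilies. Of these, 76 had a mean of at least 1 CPM (reads of the gene per M reads, normalized by the authors) over the 12 libraries and were tested, and 16 did not. All mice carried floxed alleles of Smc3, a core subunit of the cohesin ring that holds DNA loops, and all received tamoxifen, with tissue taken 5 weeks later. The mice are described as 8 weeks old, and at which step that was so is not stated. The 7 mice labelled WT lacked the Camk2a-cre/ERT2 transgene and the 5 mice labelled cKO carried it. This transgene makes a tamoxifen-activated recombinase under a promoter of forebrain excitatory neurons, so only part of the cells in a hypothalamus sample could recombine. Individual mice are named by their group and label number.

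Smc3, the floxed gene, went against the labels. Its mean rose from 81.6 ± 3.14 CPM (SD, n = 7) under the WT label to 131 ± 10.3 CPM (SD, n = 5) under the cKO label, without overlap (limma adjusted p-value 3.06e-05). Every direction below therefore refers to the libraries labelled WT or labelled cKO. Of the libraries, 11 held 17.1 to 24.0 M counted reads and WT 1 held 68.7 M. The summed level of 14 hypothalamus markers varied from 91.8 CPM (WT 5) to 732 CPM (cKO 14), and the hypothalamic peptide gene Avp from 0.793 CPM (cKO 12) to 125 CPM (cKO 8). All 12 markers of the neighbouring thalamus had a log2 fold change below 0, and 4 of them passed the test described below. Their summed level was 873 to 1684 CPM in the libraries labelled WT and 626 to 1002 CPM in those labelled cKO, and no marker of either list was at 0 in all libraries. Fewer cells of a type and less RNA per cell cannot be told apart in such bulk samples.

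Potassium channels let potassium leave or, for inward rectifiers, enter the cell, and so set the resting potential, end the action potential and limit repetitive firing. Voltage-gated Kv channels are tetramers of pore subunits, and those of Kcnq genes carry M-current. Some contain modifier subunits (Kcnf, Kcng, Kcns, Kcnv) that form no channel alone. Cytoplasmic or membrane auxiliary subunits (Kcnab, Kcnip, Kcne) bind to Kv pores. Other pore families are gated by calcium or sodium (Kcnn, Kcnt, and Kcnma with its Kcnmb subunits), rectify inwardly (Kcnj) or leak at rest (Kcnk). In the hypothalamus, ATP-sensitive channels of Kcnj11 with the sulfonylurea receptor Abcc8 are known for coupling neuronal firing to glucose.

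Which potassium channel genes the tissue contained was described first, in the 7 libraries labelled WT. Levels of different genes were compared as CPM per kilobase of the longest annotated transcript, a scale used only for this purpose. Kcnj10, the inward rectifier of astrocytes that takes up extracellular potassium, was highest at 82.5 ± 5.13 CPM per kb (SD, n = 7). It was followed by Kcnab2, a cytoplasmic beta subunit of Kv1 channels, at 66.9 ± 8.11 CPM per kb, and by Kcnip4, a calcium-binding subunit of Kv4 channels, at 54.8 ± 9.93 CPM per kb. Kcnc4, a Kv3 subunit, was at 42.3 ± 5.69 CPM per kb. The ranges of WT mice overlapped from each of these 4 genes to the next one named, so their order is not fixed by these mice.

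The leading members of further subfamilies were lower than these on the same scale. The Kv1 subunit Kcna6 was at 29.1 ± 1.87 CPM per kb, the Kv4 subunit Kcnd2 at 28.4 ± 2.75, the leak channel Kcnk1 at 27.1 ± 2.67 and the ERG channel Kcnh2 at 25.7 ± 1.56. The sodium-activated channel Kcnt1 was at 23.6 ± 3.01 CPM per kb and the calcium-activated BK pore Kcnma1 at 17.1 ± 1.05. Modifier subunits were low, with Kcnf1 at 9.20 ± 1.43, Kcns2 at 6.39 ± 2.43, Kcng3 at 2.88 ± 1.13 and Kcnv1 at 1.65 ± 0.256 CPM per kb. The SK channel Kcnn2 was at 5.88 ± 0.370, the BK beta subunit Kcnmb4 at 3.27 ± 0.749, the Slo3 gene Kcnu1 at 0.700 ± 0.0724 and Kcne4 at 0.429 ± 0.0759 CPM per kb. The plot of levels by subfamily shows 72 of the 76.

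**Figure D1:**
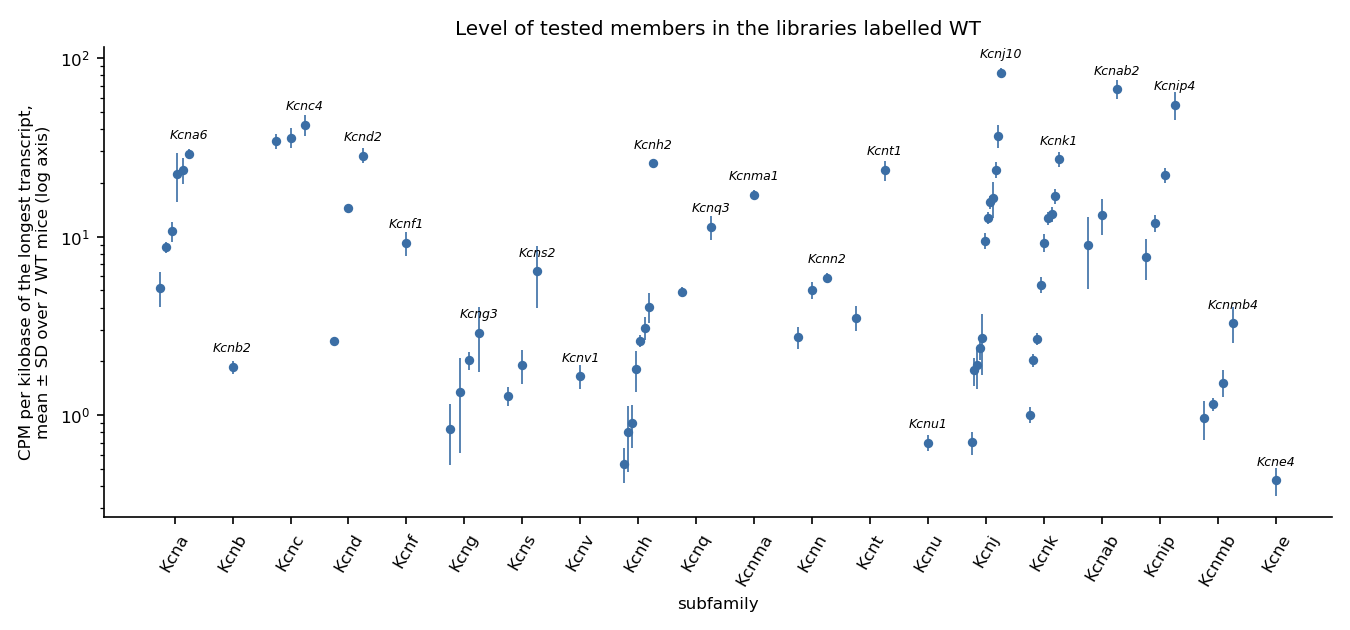
CPM per kilobase of the longest transcript (vertical, log axis) for 72 tested members, placed by subfamily (horizontal). Points are means and bars SD over the 7 WT mice. Kcnj10 stands highest at 82.5 and Kcne4 lowest at 0.429, and the highest member plotted in each subfamily is named.

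The 16 members under the minimum had means from 0.00781 to 0.883 CPM over the 12 libraries and were not tested. The cardiac and epithelial channel subunits Kcnq1 (0.659 CPM), Kcne1 (0.00781 CPM) and Kcnj1 (0.00826 CPM) were among them. Of the 16, 4 had at most 3 reads in every library, the floor used here for counting error. Nearest to the minimum, Kcnn4, an intermediate-conductance calcium-activated channel, was just outside it at 0.883 CPM and Kcne4 just inside it.

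The comparison of the groups asked which channel genes differ between the libraries labelled cKO and WT, in a limma fit over all 15359 tested genes. A gene was called when its Benjamini-Hochberg adjusted p-value was under 0.05, and the fold changes given, computed on log2(CPM + 1), understate those of low genes. Of the 76 members, 10 were called, 1 higher and 9 lower. The background over all tested genes was 14.1% called (6.54% higher and 7.6% lower), so 10 of 76 members is close to the background in number. The median log2 fold change was -0.07 over the members and 0.01 over all tested genes, and 49 of the 76 members had a fold change below 0, where the share over all tested genes was 47.5%. Group ranges did not overlap in 2 members, both lower in the libraries labelled cKO, where the background was 6.73% (3.52% higher and 3.2% lower). At an unadjusted p-value under 0.05 there were 23 members, and the background was 31.1%. Over all tested genes limma called 1004 higher and 1168 lower, a split that became 1377 higher and 1054 lower after median centring and 1318 higher and 862 lower after a correction for transcript GC and length. The summed level of all 92 members was 4656 to 5227 CPM in WT and 4311 to 4967 CPM in the libraries labelled cKO.

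**Figure D2:**
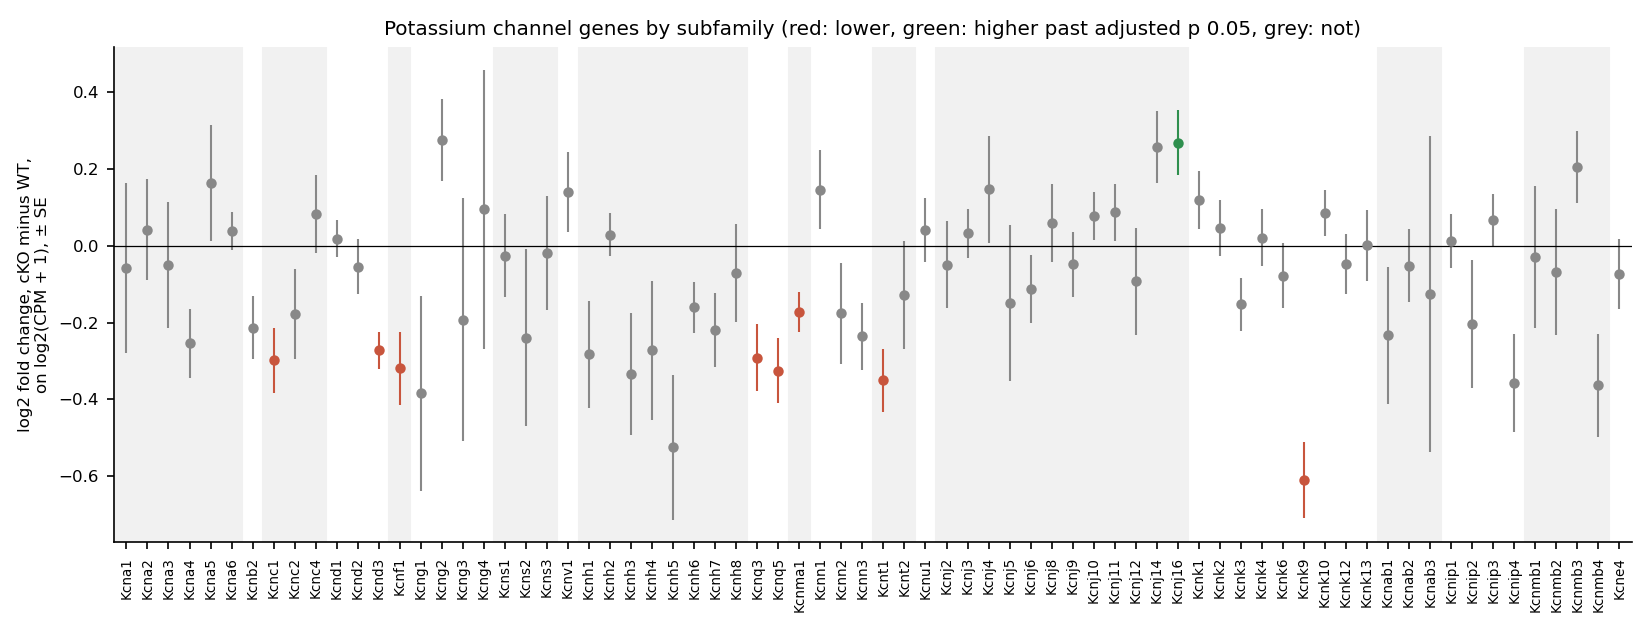
Limma log2 fold change on log2(CPM + 1) (vertical, cKO minus WT, bars SE, 7 against 5 mice) for 72 tested members, ordered by subfamily with alternating shading. Red points are 8 of the lower members and the green point the 1 higher member past an adjusted p-value of 0.05, and Kcnk9 lies farthest from 0 at -0.61.

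Kcnk9 showed the largest difference among the called members. It encodes the acid-sensitive leak channel TASK-3, and it is an imprinted gene, known to be expressed mainly from the maternal allele in brain. Kcnk9 was at 134 to 171 CPM (median 159) in the 7 WT libraries. In the libraries labelled cKO it was at 82.4 (cKO 8), 100 (cKO 9), 137 (cKO 12), 94.2 (cKO 13) and 102 CPM (cKO 14). Only cKO 12 reached into the WT range, above WT 7. The means were 156 ± 12.5 CPM (SD, n = 7) and 103 ± 20.2 CPM (SD, n = 5), a ratio of 0.661. In limma the difference was -0.61 on the log2 scale, with a standard error of 0.10, an adjusted p-value of 0.00383 and an exact permutation p-value of 0.00253. It was called in each of the 12 fits that left out 1 mouse and in each of the 11 other alternative settings. With the thalamus marker score as a covariate the fold change was -0.78.

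The other 8 tested leak channels were not called. Their fold changes ran from -0.15 for the related acid-sensitive channel Kcnk3 to 0.12 for Kcnk1, a widely expressed weak leak channel. Kcnk3 was at 50.7 ± 4.81 CPM in WT and 45.4 ± 3.84 CPM in the libraries labelled cKO (limma adjusted p-value 0.151). The stretch- and lipid-sensitive channels Kcnk2 (log2 fold change 0.05), Kcnk4 (0.02) and Kcnk10 (0.08) lay near 0. Kcnk13, which is known as a microglial channel in brain, was at 16.5 ± 1.71 and 16.6 ± 2.49 CPM.

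Kcnd3 and Kcnt1 were the members whose groups did not overlap. Kcnd3 encodes a Kv4 pore subunit of the A-type current, which delays firing below threshold. It was at 94.9 to 111 CPM (median 102) in WT and at 86.7 (cKO 8), 87.0 (cKO 9), 82.5 (cKO 12), 79.1 (cKO 13) and 91.9 CPM (cKO 14). All 5 libraries labelled cKO lay below all 7 labelled WT. Limma put the change at -0.27 log2 units (SE 0.05), with adjusted p-value 0.00554 and, by exact permutation, a p-value of 0.00126, the smallest that 792 splits allow. Its antisense neighbour Kcnd3os was at a mean of 0.682 CPM in WT and 0.422 CPM in the libraries labelled cKO, and what overlap between both genes does to the Kcnd3 counts was not tested. With the thalamus score as a covariate Kcnd3 was not called (log2 fold change -0.23, limma adjusted p-value 0.0552), and with both regional scores it was (-0.24, 0.0330). The other Kv4 pores were not called, with Kcnd2 at -0.05 and Kcnd1 at 0.02.

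Of the KChIP subunits that bind Kv4 channels, none was called. Kcnip4 was at 131 ± 23.8 CPM in WT and 102 ± 17.6 CPM in the libraries labelled cKO (log2 fold change -0.36, limma adjusted p-value 0.0757). With the thalamus score as a covariate its fold change was 0.0027 (limma adjusted p-value 0.987). Kcnip2 had a fold change of -0.20, and Kcnip1 and Kcnip3 of 0.01 and 0.07.

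Kcnt1 encodes Slack, a channel opened by intracellular sodium that contributes to the afterhyperpolarization. It was at 134.1 to 191 CPM (median 151) in WT and at 127 (cKO 8), 112 (cKO 9), 133.8 (cKO 12), 125 (cKO 13) and 112 CPM (cKO 14). The groups did not overlap, but WT 5 and cKO 12 lay next to each other at the boundary. On the log2 scale this was -0.35 ± 0.08 (SE) by limma, with adjusted p-value 0.0151 and exact permutation p-value 0.00379, and it was called in every fit that left out 1 mouse and in each of the other 11 settings. Its relative Kcnt2, Slick, was at 20.3 ± 3.25 and 18.7 ± 4.40 CPM and was not called (log2 fold change -0.13).

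**Figure D3:**
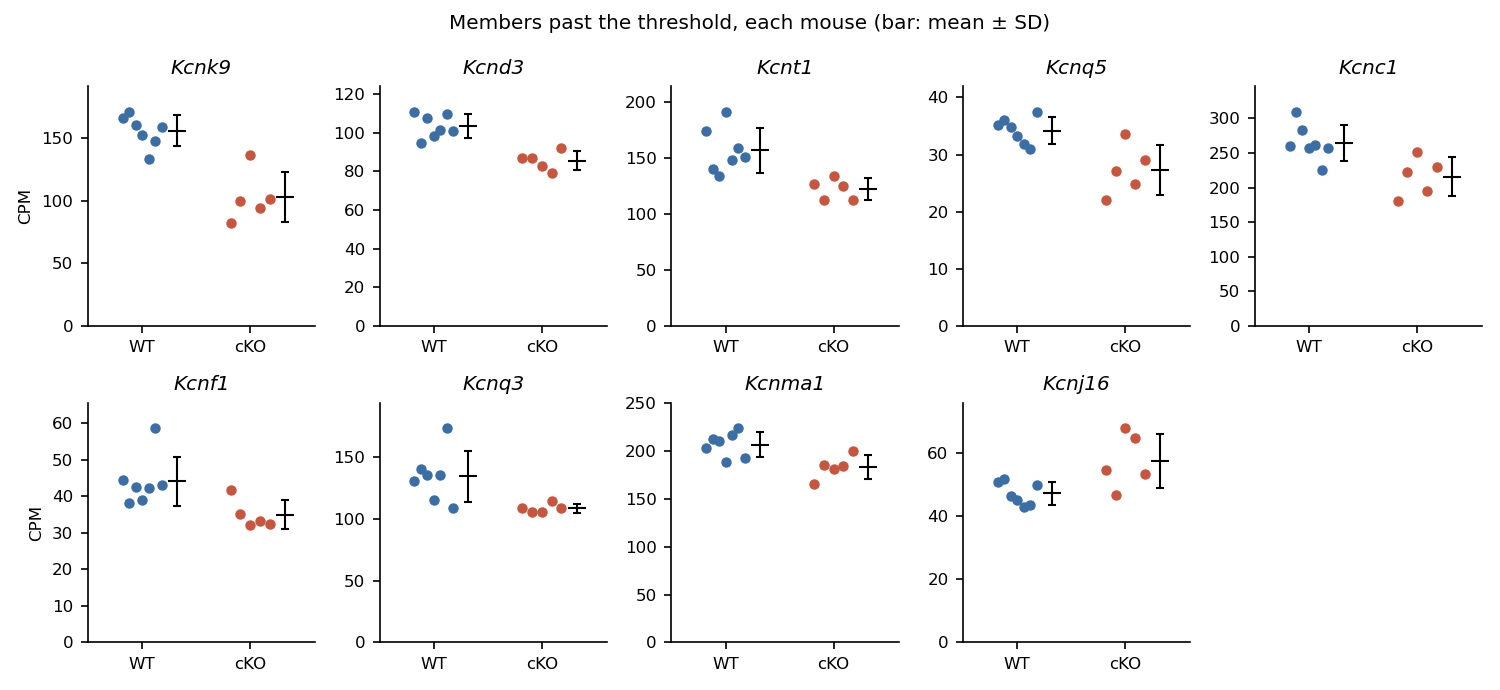
CPM of 9 called members (vertical, from 0) in every mouse, WT in blue (n = 7) and labelled cKO in red (n = 5), with mean and SD as a black bar. The groups are separate in Kcnd3 and Kcnt1 and overlap in the other 7, and Kcnj16 is the member that is higher.

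Promoter sequence was taken for called members from RefSeq (GRCm38.p6), which held at least 1 start for 67 of the 92 members and among the called ones for Kcnd3, Kcnq5, Kcnc1, Kcnf1, Kcnma1 and Kcnj16. The 250 bases before the annotated start are shown for the non-overlapping member Kcnd3, for Kcnc1, a lower member described below, and for the first of the 4 starts of Kcnj16, the only higher member, so that their composition can be compared. Capitals mark the GC box GGGCGG, searched on both strands.
Kcnd3, chr3:105451640-105451889, plus strand: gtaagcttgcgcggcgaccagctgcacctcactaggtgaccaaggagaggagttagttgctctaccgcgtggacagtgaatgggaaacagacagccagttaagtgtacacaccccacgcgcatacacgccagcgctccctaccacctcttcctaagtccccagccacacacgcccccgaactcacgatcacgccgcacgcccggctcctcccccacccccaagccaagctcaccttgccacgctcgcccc
Kcnc1, chr7:46396218-46396467, plus strand: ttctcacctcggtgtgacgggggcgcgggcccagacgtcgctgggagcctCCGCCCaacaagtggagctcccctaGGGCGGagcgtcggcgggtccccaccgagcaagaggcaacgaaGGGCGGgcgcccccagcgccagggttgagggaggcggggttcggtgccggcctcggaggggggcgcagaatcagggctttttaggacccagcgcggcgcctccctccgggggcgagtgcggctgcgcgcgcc
Kcnj16, chr11:110967783-110968032, plus strand: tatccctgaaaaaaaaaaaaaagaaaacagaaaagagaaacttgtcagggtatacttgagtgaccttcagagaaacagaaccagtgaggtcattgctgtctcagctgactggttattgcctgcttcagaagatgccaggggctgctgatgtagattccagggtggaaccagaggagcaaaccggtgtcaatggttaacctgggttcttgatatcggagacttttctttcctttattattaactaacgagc
The Kcnc1 window held 3 GC boxes and 30 CpG dinucleotides at 74.4% GC, and that of Kcnd3 held 0 and 18 at 62.8% GC. The first Kcnj16 window held 0 GC boxes and 3 CpG at 42.8% GC, and of its other starts the last held 1 GC box. The GC box was in 32.7% of all 32851 RefSeq windows of this length and in 44.6% of the 92 windows of members. Kcnma1 also had 3, at 79.2% GC, whereas Kcnf1 and both starts of Kcnq5 had 0, so the lower members did not share it. Kcnf1 was at 51.2% GC with 1 CpG, and the Kcnq5 starts at 60.8% with 14 and 44.4% with 3. The windows of lower members thus ran from 44.4% to 79.2% GC.

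Kcnq genes encode Kv7 channels, which carry the M-current, a slow current that holds neurons near rest and is closed by muscarinic receptors. Kcnq3 and Kcnq5 were lower. Kcnq5 was at 30.9 to 37.5 CPM (median 34.7) in WT and at 22.0 (cKO 8), 27.1 (cKO 9), 33.6 (cKO 12), 24.8 (cKO 13) and 29.1 CPM (cKO 14). Only cKO 12 lay within the WT range. Limma put the change at -0.33 log2 units (SE 0.09), with adjusted p-value 0.0250 and, by exact permutation, a p-value of 0.00631, and the call was lost without cKO 8 (adjusted p-value 0.0501), without cKO 13 (0.0581) or without WT 1 (0.0522).

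Kcnq3, which works in neurons as part of mixed M-current channels, was at 109.2 to 173 CPM (median 136) in WT and at 108.7 (cKO 8), 105 (cKO 9), 106 (cKO 12), 114 (cKO 13) and 108.6 CPM (cKO 14). The libraries labelled cKO lay close together, and only cKO 13 reached into the wide WT range. In limma the difference was -0.29 on the log2 scale, with a standard error of 0.09, an adjusted p-value of 0.0407 and an exact permutation p-value of 0.0152. The call was kept only without WT 6, WT 11 or WT 15 and was lost without any other single mouse, with adjusted p-values up to 0.0838.

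Kcnc1, Kcnf1 and Kcnma1 were also lower. Kcnc1 encodes a Kv3 pore subunit that repolarizes fast-spiking neurons quickly. It was at 226 to 310 CPM (median 260) in WT and at 180 (cKO 8), 223 (cKO 9), 251 (cKO 12), 194 (cKO 13) and 230 CPM (cKO 14). The groups overlapped in 2 of the 5 libraries labelled cKO. Limma put the change at -0.30 log2 units (SE 0.08), with adjusted p-value 0.0336 and, by exact permutation, a p-value of 0.0101. It was kept without cKO 12, cKO 14, WT 6, WT 11 or WT 15 and lost without any other single mouse, with adjusted p-values up to 0.0792, and it was lost with the thalamus score as a covariate, at -0.39 (0.0567), but not with both regional scores, at -0.36 (0.0454). With GC and length corrected for, Kcnc1 was at -0.17 and not called (limma adjusted p-value 0.180). The Kv3 genes Kcnc2, at -0.18, and Kcnc4, at 0.08, were not called.

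Kcnf1, a modifier of Kv2 channels, was at 38.1 to 58.7 CPM (median 42.7) in WT. It was at 41.7 (cKO 8), 35.3 (cKO 9), 32.1 (cKO 12), 33.2 (cKO 13) and 32.6 CPM (cKO 14), a change of -0.32 ± 0.10 (SE) log2 units by limma with adjusted p-value 0.0405 and exact permutation p-value 0.0114. Only cKO 8 lay inside the WT range. The call was kept without cKO 8, WT 4, WT 5, WT 6 or WT 11 and lost without any other single mouse, with adjusted p-values up to 0.0896. With the thalamus score as a covariate the change was -0.19 (limma adjusted p-value 0.334), and with both regional scores -0.20 (0.284). The Kv2 pore Kcnb2 was not called, at -0.21, and neither was any of the other 8 tested modifiers, from -0.38 for Kcng1 to 0.28 for Kcng2.

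Kcnma1, the BK pore opened by calcium and depolarization together, had the smallest difference among the called members. It was at 189 to 224 CPM (median 211) in WT and at 166 (cKO 8), 186 (cKO 9), 181 (cKO 12), 184 (cKO 13) and 200 CPM (cKO 14). Only cKO 14 lay within the WT range. In limma the difference was -0.17 on the log2 scale, with a standard error of 0.05, an adjusted p-value of 0.0422 and an exact permutation p-value of 0.0126, kept without WT 6, WT 15 or cKO 14 and lost without any other single mouse, with adjusted p-values up to 0.0938. Its beta subunits were not called, with the neuronal Kcnmb4 at 5.32 ± 1.22 and 3.89 ± 0.768 CPM (limma adjusted p-value 0.0848). Of the SK channels, which produce the medium afterhyperpolarization, Kcnn1, Kcnn2 and Kcnn3 had fold changes of 0.15, -0.18 and -0.24, and none was called.

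Kcnj16 was the only member called higher. It encodes an inward rectifier that forms pH-sensitive channels with Kcnj10 in astrocytes. Kcnj16 was at 43.1 to 51.7 CPM (median 46.4) in WT and at 54.6 (cKO 8), 46.8 (cKO 9), 68.0 (cKO 12), 64.8 (cKO 13) and 53.5 CPM (cKO 14). Only cKO 9 lay in the WT range. On the log2 scale this was 0.27 ± 0.08 (SE) by limma, with adjusted p-value 0.0473 and exact permutation p-value 0.0126, and the call was kept only without WT 4 or cKO 9, with adjusted p-values up to 0.111 without other single mice. With the thalamus score as a covariate Kcnj16 was at 0.12 (limma adjusted p-value 0.451), and with both regional scores at 0.16 (0.209). Its partner Kcnj10 was at 446 ± 27.8 and 472 ± 44.8 CPM and was not called (0.08, limma adjusted p-value 0.420). The summed level of 8 astrocyte markers was 3343 to 4141 CPM in WT and 3704 to 4543 CPM in the libraries labelled cKO, with 7 of the 8 above 0 in fold change and 0 called by limma, and its part in the Kcnj16 result was not tested.

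The other 10 tested inward rectifiers lay between -0.15 and 0.26 without a call. The G protein-gated channels, which opioid and other inhibitory receptors open, were at 0.03 for Kcnj3, -0.11 for Kcnj6 and -0.05 for Kcnj9. Kcnj11, the pore of the neuronal ATP-sensitive channel, was at 23.9 to 33.1 CPM (median 30.3) in WT and at 29.4, 33.1, 33.6, 33.4 and 28.9 CPM in cKO 8, 9, 12, 13 and 14 (0.09, limma adjusted p-value 0.454). Kcnj8, its vascular counterpart, was at 4.53 ± 0.810 and 4.74 ± 0.4997 CPM.

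In 3 further groups no member was called. The 6 tested Kv1 genes, which set the threshold of axons, ran from -0.25 for Kcna4 to 0.16 for Kcna5, with Kcna1 at -0.06, Kcna2 at 0.04 and Kcna6 at 0.04. The 3 Kv beta subunits were all below 0, from -0.23 for Kcnab1 to -0.05 for Kcnab2. Of the 8 genes of the Kcnh family (EAG, ERG and ELK channels), 7 had fold changes below 0, with a median of -0.25. Kcnh5 was at 7.38 ± 1.93 CPM in WT and 4.86 ± 1.53 CPM in the libraries labelled cKO (ratio of means 0.659, limma log2 fold change -0.52, adjusted p-value 0.0779), and Kcnh2 was at 0.03.

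Genes of potassium channel complexes that the symbol rule does not take were compared through a list of 28 partners, 26 of them tested. Of these, 4 were called, 2 higher and 2 lower, where the background was 14.1%, and their median log2 fold change was -0.01. The split changed to 4 higher and 1 lower with transcript GC and length corrected for, and to 2 higher and 0 lower both with the thalamus score and over all genes above 0. Abcc8, the sulfonylurea receptor that pairs with Kcnj11, was lower, at 23.3 to 32.2 CPM (median 27.3) in WT and at 22.0 (cKO 8), 24.4 (cKO 9), 21.0 (cKO 12), 19.0 (cKO 13) and 25.2 CPM (cKO 14). The ranges overlapped in cKO 9 and cKO 14, and limma put the change at -0.30 log2 units (SE 0.08), with adjusted p-value 0.0313. The call was lost without cKO 8, cKO 12, cKO 13, WT 1, WT 6 or WT 7, with adjusted p-values up to 0.0741, and it was lost with the thalamus score as a covariate, at -0.24 (0.196), but not with both regional scores, at -0.31 (0.0315). It was also lost with GC and length corrected for, at -0.20 (limma adjusted p-value 0.0873), and over all genes above 0 (0.0582). Whether Abcc8 and Kcnj11 differed from each other in their change was not tested.

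The other lower partner was Hcn4, a pacemaker cation channel that often acts against leak potassium channels. Hcn4 was at 35.7 ± 5.70 CPM in WT and 28.2 ± 1.82 CPM in the libraries labelled cKO (-0.32, limma adjusted p-value 0.0384, and up to 0.0835 without single mice, kept without cKO 14, WT 5, WT 6, WT 11 or WT 15). With the thalamus score as a covariate Hcn4 was at -0.11 (limma adjusted p-value 0.465), and with both regional scores at -0.09 (0.523). It was also not called with GC and length corrected for, at -0.20 (limma adjusted p-value 0.152), or over all genes above 0 (0.0716). Gnb5, part of the complex that speeds the closing of G protein-gated channels, was higher, at 102 ± 3.04 and 115 ± 6.16 CPM without overlap (0.17, limma adjusted p-value 0.0148). Lgi1, a secreted protein that acts on Kv1 channels and synapses, was higher at 57.2 ± 1.86 and 65.9 ± 4.85 CPM (0.20, limma adjusted p-value 0.0149). Both were called in every fit that left out 1 mouse. With the thalamus score as a covariate Lgi1 was not called, at 0.20 (limma adjusted p-value 0.0809), nor with both regional scores, at 0.20 (0.0604).

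The thalamus markers, all below 0 in log2 fold change, were set beside the members. Prkcd, the most strongly differing of the 12 markers, had a log2 fold change of -1.44 (limma adjusted p-value 0.0177). With the mean log2(CPM + 1) of the list as a covariate, 3 of the 76 members were called, all lower (background 4.74%, and 3.07% lower), and all 3, Kcnk9, Kcnt1 (-0.45) and Kcnq5 (-0.46), were among the 10. In that fit Kcnq3 was at -0.10 and Kcnma1 at -0.07, and neither was called (limma adjusted p-values 0.488 and 0.460). Its standard error was larger than in the main fit for Kcnc1 (0.11 against 0.08) and Lgi1 (0.06 against 0.05). For Kcnq3 it was slightly smaller (0.083 against 0.087). A call lost with the score, as in Kcnc1 and Lgi1, can therefore come with an unchanged or larger fold change. With the hypothalamus score added, 6 members were called, 5 of them lower (background 9.2%, and 5.73% lower), and 5 of the 6 were among the 10. The summed level of 8 general neuron markers was 6186 to 6952 CPM in WT and 6947 to 7409 CPM in the libraries labelled cKO, with 2 of the 8 called higher by limma. The part of thalamic tissue in the lower members was not tested beyond these values.

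Within the 7 WT mice alone, the same score was set against each tested member on the log2 scale. Kcnq3 had a Pearson r of 0.90 (exact permutation p-value 0.00456) and a Spearman rho of 0.96 (exact p-value 0.00278), and without the 2 mice farthest from the median, WT 7 and WT 11, r was 0.98. Kcnma1 had an r of 0.91 (exact p-value 0.00595) and a rho of 0.96 (exact p-value 0.00278), with r at 0.91 without these 2 mice. Kcnip4, which was not called between the groups, had an r of 0.97 (exact p-value 0.00159) and a rho of 0.96 (exact p-value 0.00278), with r at 0.85 without these 2 mice. Kcnq5 had an r of -0.81 (exact p-value 0.0304) and a rho of -0.68 (exact p-value 0.1095), but without the 2 mice r was -0.16, so the relation rested on them. Kcnk9 had an r of -0.57 (exact p-value 0.184) and a rho of -0.32 (exact p-value 0.498), with r at 0.73 without the 2 mice. These were 5 of 152 relations computed, for 76 members and 2 scores, and none passed after Benjamini-Hochberg adjustment, where the smallest adjusted values were 0.174 for r and 0.106 for rho. At an unadjusted exact p-value under 0.05 there were 14 for the thalamus and 15 for the hypothalamus score by r.

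**Figure D4:**
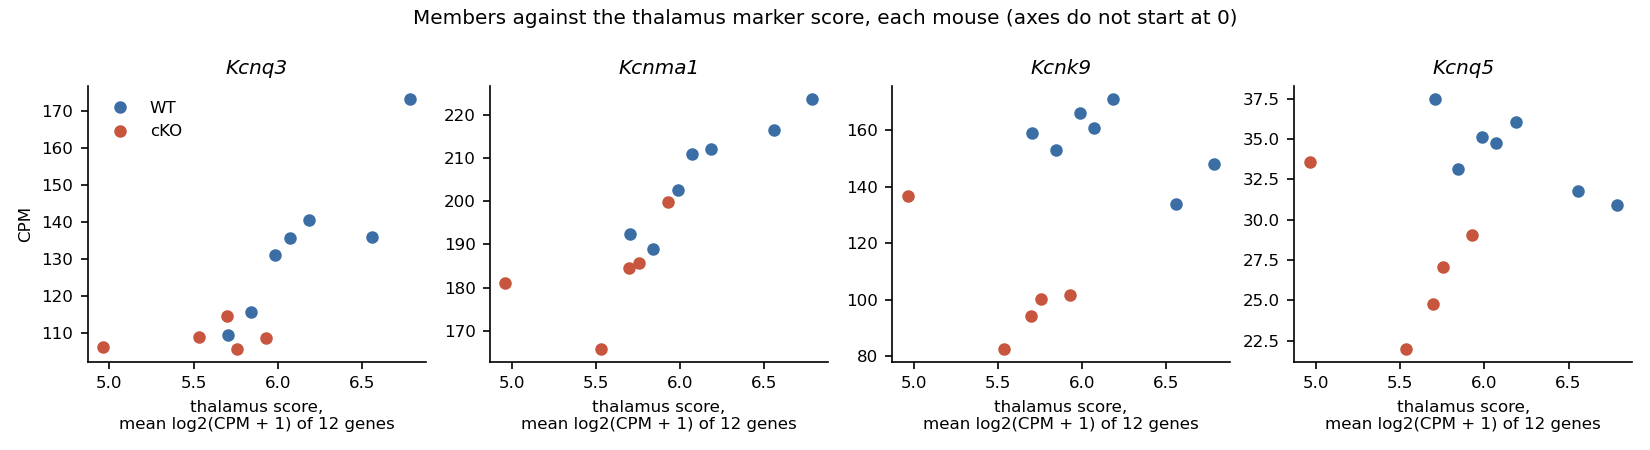
CPM of 4 called members (vertical) against the mean log2(CPM + 1) of 12 thalamus markers (horizontal), WT in blue (n = 7) and labelled cKO in red (n = 5), each point a mouse. Kcnq3 and Kcnma1 rise with the score among WT mice (r 0.90 and 0.91), whereas in Kcnk9 the 5 red points lie below WT mice of similar score, except cKO 12, whose score is the lowest.

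Several members differed widely between mice of the same group. Among the 52 members with a mean of at least 10 CPM the median coefficient of variation was 10.95% in WT and 12.7% in the libraries labelled cKO, and over all 10682 tested genes at that level it was 6.48% and 7.44%. Among all 76 tested members Kcng4, a Kv6 modifier, varied most in WT, at 2.56 to 9.86 CPM, a coefficient of variation of 54.7%. Kcnab3, a Kv1 beta subunit, was at 9.96 to 36.3 CPM in WT and at 6.80 to 41.7 CPM in the libraries labelled cKO.

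Some members were high in the same mice. Kcna1, a Kv1 pore known from myelinated axons, was at 125 CPM in WT 4, 133 in WT 5, 113 in cKO 12 and 121 in cKO 13, and at 54.6 to 90.5 CPM in the other 8. Kcna2, its usual partner, was at 333 to 340 CPM in these 4 mice and at 206 to 282 CPM in the others. These 4 mice were the 2 highest of each group in 8 of 76 members (10.5%), among them Kcna1, Kcna2, Kcnab2, Kcnab3, Kcng3, Kcng4 and Kcnh7, and in 6.73% of all tested genes. They were the 2 lowest of each group in 6 members (7.89%), Kcna5, Kcnh1, Kcnip2, Kcnj5, Kcnn3 and Kcns2, and in 5.31% of all tested genes. The same 4 libraries had the highest summed oligodendrocyte markers, at 8893 to 10188 CPM against 4211 to 7108 CPM in the others, and the lowest summed hypothalamus markers, at 91.8 to 252 CPM against 401 to 732 CPM. The part of cell composition in these differences was not tested, and none of these 14 members was called between the groups.

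**Figure D5:**
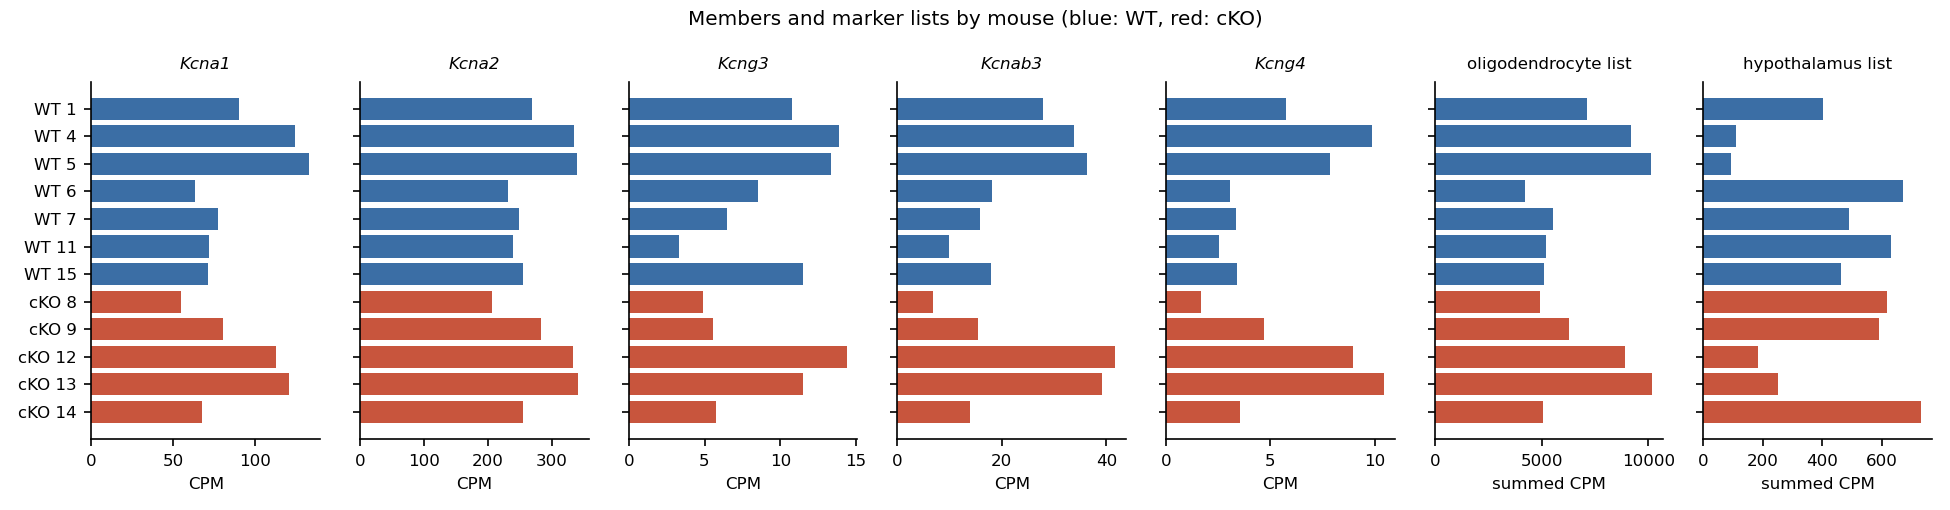
CPM of 5 members and summed CPM of 2 marker lists (horizontal, from 0) in each mouse (vertical), WT in blue and labelled cKO in red. WT 4, WT 5, cKO 12 and cKO 13 have the longest bars of their group in the 5 members and in the oligodendrocyte list and the shortest in the hypothalamus list.

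The number of members called moved with the way of testing. On the recovered reads, edgeR called the same 10, 9 of them lower (background 13.7%, and 7.85% lower), and DESeq2 called 13, 12 of them lower, which included the 10 (background 17.9%, and 9.93% lower). With transcript GC and length corrected for, 8 members were called, 5 of them lower (background 15%, and 5.94% lower), and of the 10 only Kcnk9, Kcnd3, Kcnt1 and Kcnq5 were among them. In that fit Kcnq3 was at -0.22, Kcnf1 at -0.25, Kcnma1 at -0.10 and Kcnj16 at 0.23, without a call (limma adjusted p-values 0.113, 0.0983, 0.244 and 0.0649). Among the other 4 that were called were Kcnip4 (-0.43) and, higher, Kcng2 and Kcnj14. Kcnk9, Kcnd3, Kcnt1 and Kcnq5 were also the 4 of the 10 that were called when every gene above 0 was tested. Kcnma1 was not called after median centring (limma adjusted p-value 0.0594), nor Kcnj16 after quantile normalization (0.0524).

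The authors' deposited table gives their own test of the same contrast over all 32494 genes. The authors' deposited table places 8 of the 92 members under an FDR of 0.05, 1 higher and 7 lower (background 4.94%, with 1.63% higher and 3.3% lower), all of them among the 10 called by limma. Of all 32494 genes, 15359 had a mean of at least 1 CPM, against 76 of the 92 members. This background therefore holds a larger share of low genes than the members do, and the shares are not of like sets. Kcnma1 (FDR 0.0916) was 1 of the 2 that the authors' deposited table did not place under 0.05. For Kcnk9 the authors' deposited table gives a log2 fold change of -0.60 (FDR 5.31e-06), and it gives -0.28 for Kcnd3 (FDR 0.00115) and 0.28 for Kcnj16 (FDR 0.0443).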

How the data were processed

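The authors deposited gene-level CPM, normalized, with 32494 genes and 12 libraries, and a test table with log2 fold change, log2 mean CPM, p-value and FDR columns whose names are those edgeR writes. Per the submitters' processing notes, FastQC 0.11.9, STAR 2.7.9a, SAMtools, Subread and featureCounts were used; genome build, annotation and strand setting are not given in the sources used here. Libraries were made with an mRNA isolation and NEBNext Ultra II kit, per the labels' protocols. All 12 columns matched a sample by name, and 0 were left unused.

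Every CPM value was a whole multiple of 1 step per library (100% of values, relative tolerance 1e-05), so whole reads were recovered by dividing. The main test was limma 3.58.1 (R 4.3.3, moderated with an intensity trend) applied to log2(CPM + 1) of the 15359 genes averaging at least 1 CPM, without covariates, with Benjamini-Hochberg adjustment over all of them. Exact permutation tests were two-sided on mean CPM over 792 splits. Nothing in the labels states litters or separate batches. The p-values set group differences against the spread between these mice, and any unlabelled litter or batch structure would stay within them. Transcript lengths came from GENCODE M21, with a match for 94.5% of tested genes, and the build of the files is not stated.

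On simulated counts with 200 genes changed by 1 log2 unit, 181 of the 193 tested (93.8%) were recovered among 15344 genes with 7 false calls. The alternatives were all genes above 0, a minimum of 5 CPM, a pseudocount of 0.1, median centring, quantile normalization, robust eBayes, edgeR 4.0.16 and DESeq2 1.42.0 on recovered reads, a spline correction for transcript GC and length, marker scores as covariates, and leaving out each mouse. On recovered reads edgeR called 2097 genes and DESeq2 2747.

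The members and gene lists were chosen with earlier results of these data known. Named genes were Smc3, each called member, the member with the highest level per kilobase in each subfamily, a fixed set of 19 channel genes, each called partner, and the members nearest the CPM minimum; other genes were named after their values were seen. Some genes that this rule takes are counted but not reported here.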

Additional observations from a re-analysis of the deposited data

Results flagged for a closer look

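The spread of each named gene within WT and within cKO gave 82 sets of values, and in 2 of them a single mouse lay far from the others. By chance about 1 in 20 such sets, here 4.1, would show this. Kcnf1 was at 58.7 CPM in WT 11, far above the next WT library at 44.6 CPM. Leaving WT 11 out, the limma log2 fold change of Kcnf1 was -0.25 (adjusted p-value 0.0387) in place of -0.32. Kcnc4, a Kv3 subunit, was at 110 CPM in WT 11, far below the next WT library at 151 CPM, and it was not called with or without that mouse.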

How the results depend on the processing

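No paired analysis was possible because the groups share no mouse number. The number of members called was 5 over all genes above 0, 3 with the thalamus score as a covariate and 6 with both regional scores, against 10, and with single mice left out it was between 3 and 10. It was 3 without WT 1 and 3 without cKO 13, 5 without cKO 8 or WT 7, and 6 without cKO 9, cKO 12 or WT 5. The number of genes called over the whole table was 728 with the thalamus score, 1413 with both scores and 1158 to 2302 without single mice, against 2172. Partners called numbered 2 over all genes above 0, 2 with the thalamus score and 2 to 5 without single mice, against 4. The median log2 fold change of the members was -0.0025 with both scores and -0.10 to -0.06 without single mice, against -0.07. Adding genes near 0 adds tests, and leaving out a mouse takes away a sample; otherwise the cause was not tested. For single named genes, 817 of 916 values stayed on the same side of the threshold, 96 were calls lost, 3 were calls gained, and 0 called values changed sign. The 916 include values of named genes not called in the main fit, which had no call to lose. Kcnk9 lost its call in 0 of 11 other settings and 0 fits without 1 mouse, and Kcnj16 in 5 and 10. The 16 members under 1 CPM were not tested. Of these, 3 had more than 3 reads in every library and 4 had at most 3 reads in every library.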

Other observations

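The protein-coding neighbours of Kcnk9 in the RefSeq order of mouse chromosome 15 were looked up after its value was seen. Trappc9, a trafficking gene next to it and part of the same imprinted domain, was at 113 ± 3.58 CPM (SD, n = 7) in WT and 130 ± 12.2 CPM (SD, n = 5) in the libraries labelled cKO. It was above the WT median in 5 of 5 libraries labelled cKO, a change of 0.21 ± 0.05 (SE) log2 units with limma adjusted p-value 0.0221. On the other side of Kcnk9, the collagen gene Col22a1 was lower, at 1.80 ± 0.393 and 1.004 ± 0.235 CPM without overlap (-0.48, SE 0.11, limma adjusted p-value 0.0143). Fam135b (-0.02), Khdrbs3 (0.09) and Chrac1 (0.08) were not called.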
